A study of Mus musculus with 9 samples.

Results

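Genes that extracellular signal-regulated kinase (ERK) switches on, either as brakes on its own pathway or as part of the immediate response to growth factors, were followed in MLP29 cells, a mouse liver progenitor line. The members were named as genes, Dusp1, Dusp4, Dusp6, Spry2, Spry4, Spred1, Ier3, Egr1, Phlda1 and Myc, and every probe set of the Affymetrix Mouse430A_2 array that names one of them alone was taken. This gave 13 probe sets for 9 of the 10 genes, out of 12393 genes with a probe set of their own, and Dusp4 is not analysed here. The conditions compared were all in cells kept in 0.1% serum for at least 16 h beforehand. Antibody-treated cells received 10 μg/ml of clone BMB5, which blocks α5β1 integrin, the fibronectin receptor. HGF/SF1-treated cells received 20 ng/ml of hepatocyte growth factor, the ligand of the receptor tyrosine kinase Met. Untreated cells, labelled as controls, received neither agent, and treatments lasted 24 h. Each condition was hybridised to 3 arrays, 1 in each of experiments 1, 2 and 3, and the members were described across all 9 arrays. The methods name a control IgG among several control additions, and the labels do not say which of them, if any, the control arrays received. Whether a change under BMB5 goes with the block of the integrin or with the addition of an antibody was not tested.

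Growth factors and adhesion receptors activate ERK through Ras, Raf and MEK, and ERK then phosphorylates transcription factors that turn on immediate early genes within minutes. Among the products are inhibitors that shut the same pathway down, such as dual-specificity phosphatases, which remove phosphate from the kinases, and Sprouty and Spred proteins, which act near the receptor and Ras. The transcripts of many of these genes are short-lived, so their level is widely used as a readout of how active the pathway is at the time of harvest. In liver cells the HGF and Met axis is a classical activator of this pathway and of cell scattering.

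Promoter sequences are shown for Dusp1, Dusp6 and Spry2, the 2 phosphatases whose log2 changes under antibody had opposite signs and the only member whose brightest probe set passed an unadjusted p under 0.05 between the treatments. RefSeq promoter windows (GRCm38.p6) were found for 5 of the 10 genes, which were Dusp1, Dusp6, Spry2, Spred1 and Ier3, and the 250 bases before the annotated start were used. Capitals mark matches to the motifs searched on both strands, which were the core of the cAMP response element TGACG, the AP-1 site TGANTCA, the ETS site CCGGAA, the EGR site GCGNGGGCG, the E-box CACGTG and the CArG box bound by serum response factor. The windows lie at chr17:26508473-26508722 on the minus strand for Dusp1, at chr10:99262981-99263230 on the plus strand for Dusp6 and at chr14:105896820-105897069 on the minus strand for Spry2.
Dusp1: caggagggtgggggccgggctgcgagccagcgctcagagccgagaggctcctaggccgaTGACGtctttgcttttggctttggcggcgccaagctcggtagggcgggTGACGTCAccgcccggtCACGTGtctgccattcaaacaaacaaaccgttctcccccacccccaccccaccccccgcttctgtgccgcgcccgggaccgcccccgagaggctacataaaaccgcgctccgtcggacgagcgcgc
Dusp6: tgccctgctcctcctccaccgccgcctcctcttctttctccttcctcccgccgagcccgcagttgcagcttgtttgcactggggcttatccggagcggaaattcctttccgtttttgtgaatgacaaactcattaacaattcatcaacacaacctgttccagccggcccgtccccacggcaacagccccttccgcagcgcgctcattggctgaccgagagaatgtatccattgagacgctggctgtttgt
Spry2: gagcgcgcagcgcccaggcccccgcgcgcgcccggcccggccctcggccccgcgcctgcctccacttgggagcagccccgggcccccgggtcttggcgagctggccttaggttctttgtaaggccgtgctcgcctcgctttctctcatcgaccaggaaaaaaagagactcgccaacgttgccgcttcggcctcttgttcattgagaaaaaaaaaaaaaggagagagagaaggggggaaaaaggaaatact
The Dusp1 window held 3 matches to this core, which begin 191, 143 and 140 bases before the start, and the last 2 overlap on opposite strands. It also held an E-box that begins 126 bases before the start. Of all 32851 windows of this length, 17.8% hold TGACG and 6.02% hold CACGTG. The other motifs were found in 6.75% (AP-1), 12% (ETS), 4.7% (EGR) and 1.47% (CArG box) of all windows, and in none of the 5 member windows. A match is a match of letters, and binding was not measured.

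The values are log2 summaries per probe set as deposited, and array medians lay between 5.91 and 6.08 over the 22626 probe sets fitted. MLP29 cells expressed the epithelial keratins of liver progenitors at the top of the range, with means of 13.79 for Krt8, 14.01 for Krt18 and 13.23 for Krt19, whereas Epcam (4.34) and Sox9 (5.28) were dim. The mean of the 10 measured progenitor and biliary markers lay between 8.47 and 8.66 in antibody-treated cells. It lay between 8.54 and 8.66 in HGF/SF1-treated and between 8.61 and 8.66 in untreated cells. Of these markers Sox9 alone was called between the treatments, higher with antibody (0.96, SE 0.38, unadjusted p = 0.033, adjusted p = 0.326 in limma). In that comparison 3 of the 10 had a positive log2 change, with a median of -0.08. Of all probe sets 13.2% passed an unadjusted p under 0.05 there. The 8 hepatocyte markers averaged 4.72 to 4.97 in antibody-treated, 4.72 to 5.18 in HGF/SF1-treated and 4.75 to 5.01 in untreated cells, with Alb (4.01) and Afp (4.14) dim and Hnf4a (9.28) alone above the median brightness. Hnf4a, a transcription factor of hepatocyte identity, differed by -0.86 between antibody-treated and untreated cells (SE 0.45, adjusted p = 0.529 in limma), with -0.79, -1.16 and -0.62 in the experiments and a negative sign in all 4 of its probe sets. With a term for the experiment its unadjusted p was 0.00048 (adjusted p = 0.068 in limma). In that fit 18.2% of all probe sets passed an unadjusted p under 0.05. Under antibody 6 of the 8 hepatocyte markers had a positive log2 change against untreated cells, with a median of 0.10. Hnf4a was named after its values were seen. Mean levels of marker lists for fibroblasts (9 genes), leukocytes (7) and endothelium (6) lay between 3.79 and 4.49 on every array, with none of these genes above the median brightness of all probe sets. As a sign of RNA quality, the 3′ control probe set of Gapdh minus its 5′ one lay between -0.137 and -0.0674 in antibody-treated cells, between -0.159 and -0.0644 in HGF/SF1-treated cells and between -0.318 and -0.0618 in untreated cells, on the log2 scale. For β-actin it lay between 0.228 and 0.372 in antibody-treated, between 0.299 and 0.748 in HGF/SF1-treated and between 0.197 and 0.873 in untreated cells. The part of these markers and ratios in the results was not tested. The antibody array of experiment 1 lay nearer to its untreated array than those of the other experiments did, with 0.924% of probe sets at least 1 log2 unit apart in experiment 1, 6.7% in experiment 2 and 5.39% in experiment 3. For HGF/SF1 these shares were 2.86%, 0.19% and 0.712%.

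By brightness the members fell into 3 classes. Ier3, Myc, Dusp1 and Phlda1 were bright, with means over all arrays between 9.15 and 10.21, which is between the percentiles 84.5 and 92.2 of all probe sets. Spred1 (8.0), Dusp6 (7.98), Spry2 (7.35) and Egr1 (6.82) were intermediate. Spry4 was dim, at 4.08 and 3.94 for its 2 probe sets, a level in the range of the fibroblast and endothelial markers above.

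**Figure D1:**
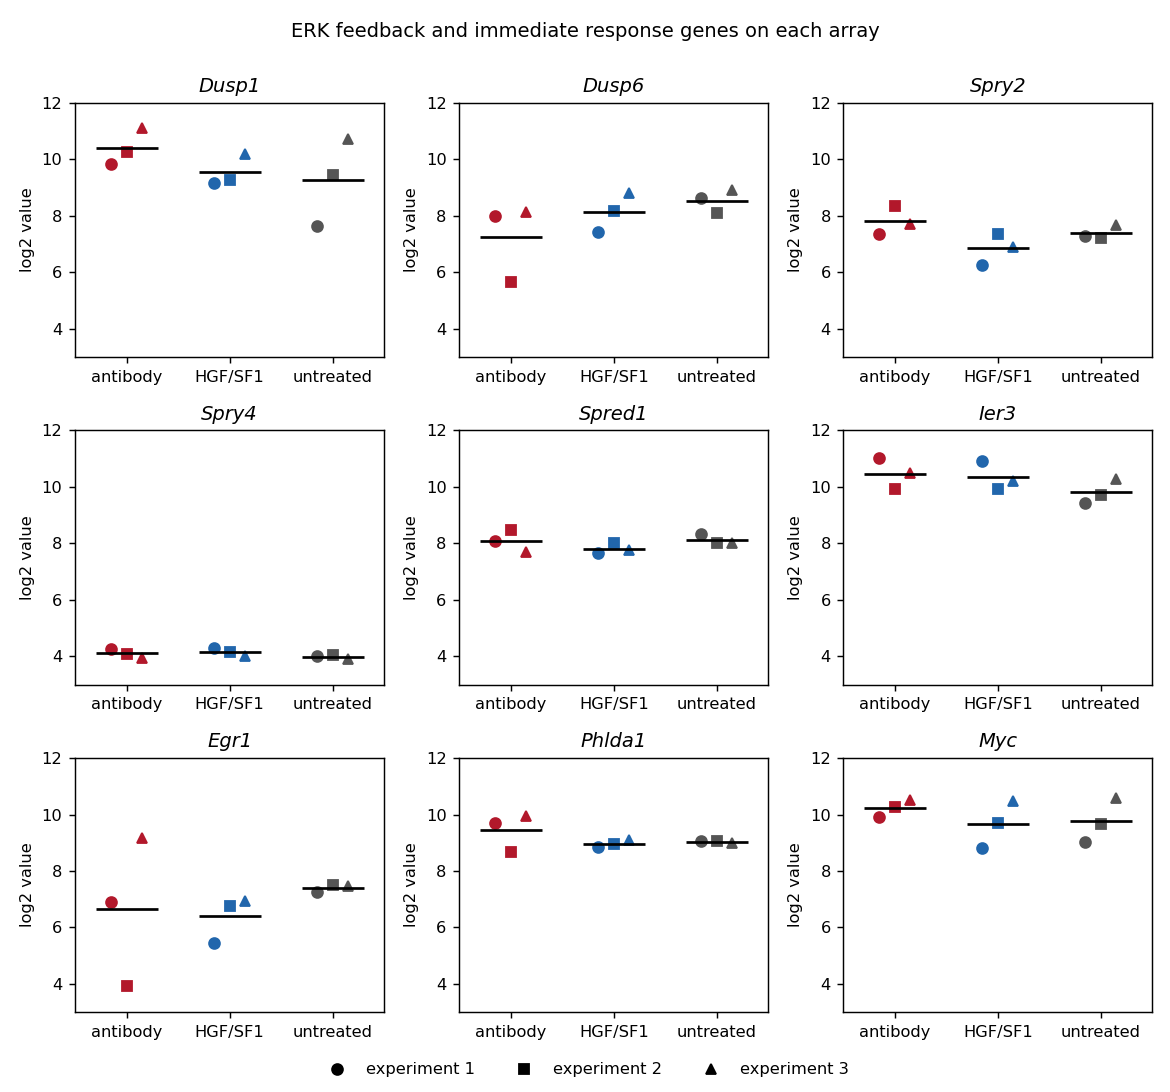
Log2 value (y axis, the same scale in each panel) of the brightest probe set of the 9 measured genes in antibody-treated, HGF/SF1-treated and untreated cells. Each point is 1 array, its shape gives the experiment and the bar is the mean of 3 arrays. Egr1 lay between 3.91 and 9.18 in antibody-treated cells, against 7.26 to 7.51 in untreated cells, and Spry4 was near 4 on every array.

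For antibody-treated against untreated cells, 0 of the 9 genes passed an unadjusted p under 0.05 in limma by their brightest probe set, where 11.8% of all probe sets passed (4.53% higher and 7.29% lower). Of the 13 probe sets 1 passed, a dim probe set of Spry4 that was lower. None of the 13 passed once p was adjusted over the 22626 probe sets by Benjamini-Hochberg, a threshold that 0.0221% of all probe sets passed. The median log2 change of the 9 genes was 0.41, against 0.003 for all probe sets, and their median absolute change was 0.46, against 0.139. The genes were taken by their brightest probe sets, while all probe sets include the dim ones. Over the 13 member probe sets these medians were 0.11 and 0.41. By the brightest probe set, the antibody-treated value was on the same side of the untreated value in 3 of 3 experiments for 5 genes, higher for Dusp1, Spry2, Spry4 (whose other probe set was lower in 3 of 3) and Ier3 and lower for Dusp6, and over all probe sets this held for 36.8% (18.2% higher and 18.6% lower). When the model also held a term for the experiment, which every condition shared, 2 of the 9 passed the unadjusted threshold, Dusp1 higher and Dusp6 lower, where 18.2% of all probe sets did (8.05% higher and 10.1% lower). With that block 0 of the 9 passed the adjusted threshold, where 0.106% of all probe sets did.

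Dusp1 encodes a nuclear phosphatase of ERK, p38 and JNK. Its log2 value (probe set 1448830_at) was 9.83, 10.25 and 11.12 in antibody-treated cells of experiments 1, 2 and 3, 9.17, 9.27 and 10.20 in HGF/SF1-treated cells, and 7.64, 9.44 and 10.71 in untreated cells. The untreated arrays spanned 3.07 log2 units, more than the antibody-treated (1.28) or the HGF/SF1-treated arrays (1.03), and the conditions overlapped. Antibody-treated minus untreated was 2.19, 0.81 and 0.41 within the experiments, which gave a mean log2 change of 1.14 (SE 0.71, 95% confidence interval -0.48 to 2.76, unadjusted p = 0.145 and adjusted p = 0.61 in limma). With the experiment as a block the SE was 0.38 and the unadjusted p 0.0197 (adjusted p = 0.184 in limma), while a random block at the estimated correlation gave an unadjusted p of 0.0704 (adjusted p = 0.357). The change moved with single untreated arrays, being 0.33 without that of experiment 1 and 1.86 without that of experiment 3 (unadjusted p = 0.0166, adjusted p = 0.399 in limma). Such fits keep the antibody array of the same experiment, so the level of the experiment enters them. With whole experiments left out, the change was 0.61 without experiment 1 and 1.3 without experiment 2. Without experiment 3 it was 1.5 (unadjusted p = 0.0476, adjusted p = 0.778 in limma). HGF/SF1-treated minus untreated was 1.53, -0.17 and -0.50, with a mean of 0.29 (SE 0.71, adjusted p = 1 in limma), and this mean was -0.53 without the untreated array of experiment 1 and 1.01 without that of experiment 3. The level of the experiment enters these fits as well. Antibody-treated cells were above HGF/SF1-treated cells in 3 of 3 experiments, by 0.85 on average (SE 0.71, adjusted p = 0.707 in limma).

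Dusp6 encodes a cytoplasmic phosphatase with a strong preference for ERK, and its change under antibody ran the other way. Its value (1415834_at) was 7.98, 5.65 and 8.12 in antibody-treated cells, 7.43, 8.17 and 8.80 in HGF/SF1-treated cells, and 8.64, 8.09 and 8.90 in untreated cells. The antibody array of experiment 2 was the lowest of all 9 by far, and of the other 2 antibody arrays 1 lay just below and 1 just above the lowest untreated array (8.09). The differences from untreated cells were -0.66, -2.44 and -0.78, with a mean of -1.29 (SE 0.64, 95% confidence interval -2.77 to 0.18, unadjusted p = 0.0779 and adjusted p = 0.496 in limma). With the block the SE was 0.51 and the unadjusted p 0.0385 (adjusted p = 0.245 in limma), and with the random block it was 0.0456 (adjusted p = 0.295). Without the antibody array of experiment 2 the change was -0.49, and without that of experiment 1 (-1.66) or of experiment 3 (-1.73) the unadjusted p was 0.0489 or 0.0364 in limma, with adjusted p of 0.278 and 0.546. After HGF/SF1 the mean change was -0.41 (SE 0.64, adjusted p = 1 in limma), with -1.21 in experiment 1 and 0.08 and -0.10 in experiments 2 and 3.

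**Figure D2:**
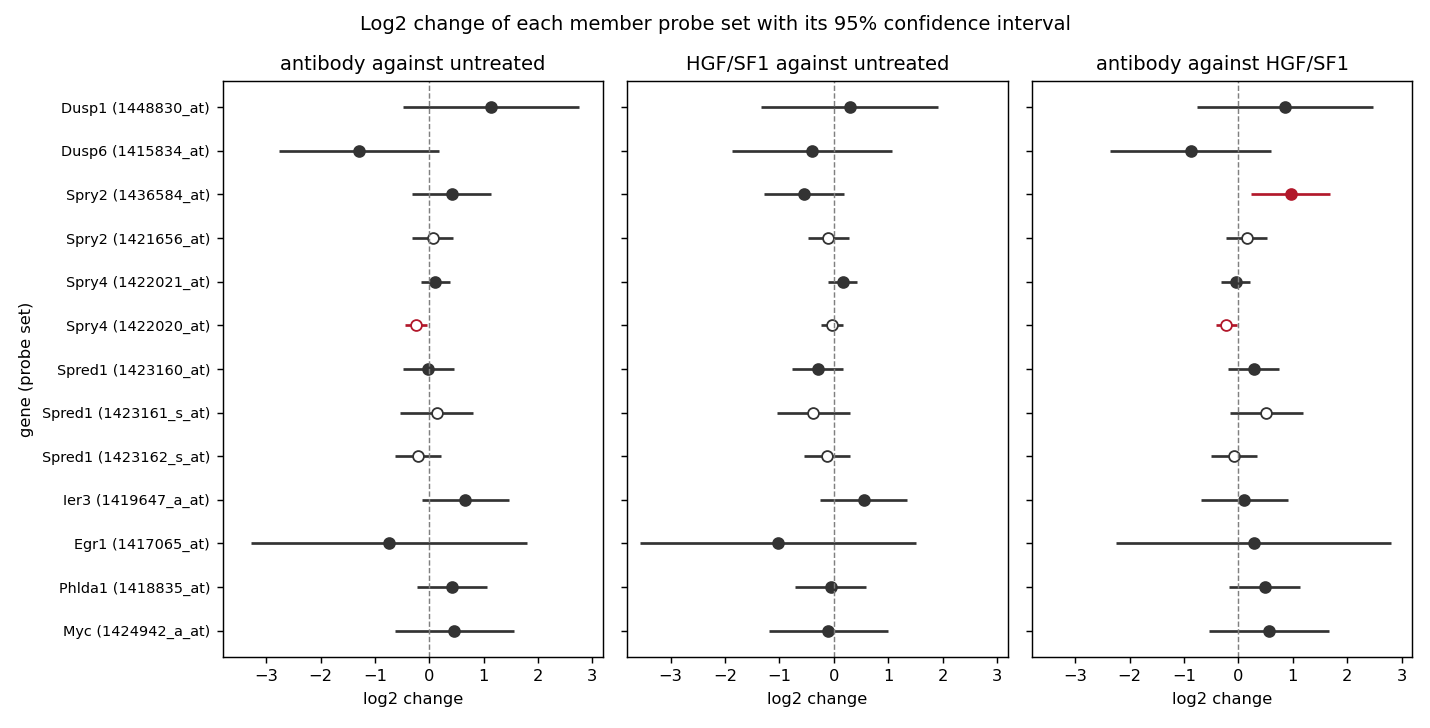
Log2 change (x axis) of each of the 13 member probe sets in the 3 comparisons, with 95% confidence intervals from limma on 9 arrays. Filled points are the brightest probe set of a gene, open points its other probe sets, and red marks an unadjusted p under 0.05, which was met by Spry2 (0.96) between the treatments and by the dim probe set of Spry4 (-0.25 and -0.22).

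Sprouty proteins restrain receptor tyrosine kinase signalling to ERK, and Spry2 was the only member called between the 2 treatments by its brightest probe set. Its value (1436584_at) was 7.37, 8.34 and 7.71 in antibody-treated cells, 6.27, 7.37 and 6.89 in HGF/SF1-treated cells, and 7.29, 7.22 and 7.67 in untreated cells. In every experiment the antibody array was the highest of its 3, although in experiments 1 and 3 by only 0.09 and 0.03 over the untreated array. The lowest antibody array and the highest HGF/SF1 array were both at 7.37, so those conditions met without separating. Antibody-treated minus HGF/SF1-treated was 1.10, 0.96 and 0.82, with a mean of 0.96 (SE 0.32, 95% confidence interval 0.23 to 1.69, unadjusted p = 0.0159, adjusted p = 0.261 in limma), a fold of 1.94. In that comparison 1 of the 9 genes passed the unadjusted threshold, where 13.2% of all probe sets did (5.2% higher and 7.96% lower), and 0 passed the adjusted one, where 0.0221% did. With the block the unadjusted p of Spry2 was 0.00507 (adjusted p = 0.0924 in limma). Against untreated cells, the antibody gave 0.41 (SE 0.32, adjusted p = 0.708 in limma) and HGF/SF1 gave -0.55 (SE 0.32, adjusted p = 1). In experiment 2 both treated arrays were above the untreated one. The antibody change rested on that experiment, since it was 0.15 without its antibody array and 0.06 without all of experiment 2. Without the HGF/SF1 array of experiment 1 (0.67), the antibody array of experiment 2 (0.69) or all of experiment 3 (1.03), the unadjusted p for Spry2 between the treatments was 0.0556, 0.0595 or 0.0755 in limma. Without the HGF/SF1 array of experiment 2 (-0.81) or all of experiment 2 (-0.90), HGF/SF1-treated cells were lower than untreated cells at an unadjusted p of 0.0342 or 0.0217 (adjusted p = 1 in limma for both). The second probe set of Spry2 was dim, with a mean of 4.21, and differed by 0.16 (SE 0.16) between the treatments.

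Spry4, another Sprouty gene, was near the lower end of the array, and its 2 probe sets had opposite signs under antibody. The brighter one (1422021_at) gave 4.26, 4.08 and 3.95 in antibody-treated cells, 4.30, 4.14 and 4.01 in HGF/SF1-treated cells, and 4.0, 4.05 and 3.91 in untreated cells. The dimmer one (1422020_at) gave 3.79, 3.74 and 3.83 in antibody-treated cells, 3.94, 4.08 and 3.99 in HGF/SF1-treated cells, and 4.01, 4.09 and 4.0 in untreated cells. The antibody arrays were thus below all others by the dimmer probe set, by -0.25 against untreated cells (SE 0.09, unadjusted p = 0.0198, adjusted p = 0.318 in limma) and by -0.22 against HGF/SF1-treated cells (SE 0.09, unadjusted p = 0.0337, adjusted p = 0.328 in limma). By the brighter probe set the change against untreated cells was 0.11 (SE 0.12, adjusted p = 0.817 in limma), so no direction is given for the gene. Of all probe sets, 14.2% did not overlap between antibody-treated and untreated cells and 13.8% between antibody-treated and HGF/SF1-treated cells, as the dimmer one did.

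Spred1 encodes a membrane protein that brings the Ras inhibitor neurofibromin to Ras. By its brightest probe set (1423160_at) it was 8.10, 8.48 and 7.69 in antibody-treated cells, 7.66, 8.01 and 7.76 in HGF/SF1-treated cells, and 8.32, 8.01 and 8.0 in untreated cells. Antibody-treated and untreated cells differed by -0.02 (SE 0.20, 95% confidence interval -0.49 to 0.45), the narrowest bound among the genes above the median brightness, and the other 2 probe sets gave 0.14 and -0.21. HGF/SF1-treated cells were lower than untreated cells by all 3 probe sets, at -0.30, -0.38 and -0.12, and none passed (adjusted p = 1 in limma for each). The 2 brighter probe sets had the same value in HGF/SF1-treated and untreated cells of experiment 2, and most of the difference came from experiment 1, with -0.66 and -0.95. Between the treatments Spred1 differed by 0.28 (SE 0.20, adjusted p = 0.653 in limma), and by 0.48 without the antibody array of experiment 3 (unadjusted p = 0.0292, adjusted p = 0.423 in limma).

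Among the immediate response genes, Egr1, a zinc finger transcription factor, spread most. By 1417065_at it was 6.91, 3.91 and 9.18 in antibody-treated cells, 5.46, 6.76 and 6.94 in HGF/SF1-treated cells, and 7.26, 7.51 and 7.47 in untreated cells. Untreated cells held Egr1 within 0.24 log2 units over the 3 experiments, whereas the antibody arrays covered 5.28, the lowest and the highest value of all 9 arrays among them. The lowest, 3.91, was at the level of Spry4, near the lower end of the array, which limits the size of that difference. The mean log2 change under antibody was -0.75 (SE 1.11, 95% confidence interval -3.28 to 1.79, adjusted p = 0.874 in limma), and it was 0.63 without the antibody array of experiment 2 and -2.01 without that of experiment 3 (unadjusted p = 0.042, adjusted p = 0.561 in limma). Against HGF/SF1-treated cells it was 0.28 (SE 1.11), and 1.66 without the antibody array of experiment 2 (unadjusted p = 0.0421, adjusted p = 0.601 in limma). All 3 HGF/SF1 arrays were below all 3 untreated arrays, by -1.81, -0.74 and -0.53, with a mean of -1.03 (SE 1.11, adjusted p = 1 in limma). This SE pools the spread of all conditions, the wide antibody arrays included. Of the 9 genes, Egr1 was the only one whose HGF/SF1 and untreated arrays did not overlap, and 3.69% of all probe sets separated in this way.

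Phlda1, a pleckstrin homology domain protein induced by growth factors, showed a similar contrast in spread. By 1418835_at it was 9.71, 8.69 and 9.95 in antibody-treated cells, 8.85, 8.97 and 9.09 in HGF/SF1-treated cells, and 9.06, 9.06 and 8.98 in untreated cells. The 6 arrays without antibody lay within 8.85 to 9.09, and of the antibody arrays 2 were above this range and that of experiment 2 below it. The mean change was 0.42 (SE 0.28, 95% confidence interval -0.23 to 1.06, adjusted p = 0.65 in limma). It moved with single antibody arrays, being 0.17 without that of experiment 3 (unadjusted p = 0.551, adjusted p = 0.928 in limma) and 0.14 without all of experiment 3. Without the antibody array of experiment 2 the change was 0.80 (unadjusted p = 0.000281, adjusted p = 0.369 in limma), and 0.86 against HGF/SF1-treated cells (unadjusted p = 0.000174, adjusted p = 0.227 in limma), where all arrays gave 0.48 (SE 0.28). On the antibody array of experiment 2, Egr1, Dusp6 and Phlda1 each had their lowest value of all 9 arrays, and Spry2 and Spred1 their highest.

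**Figure D3:**
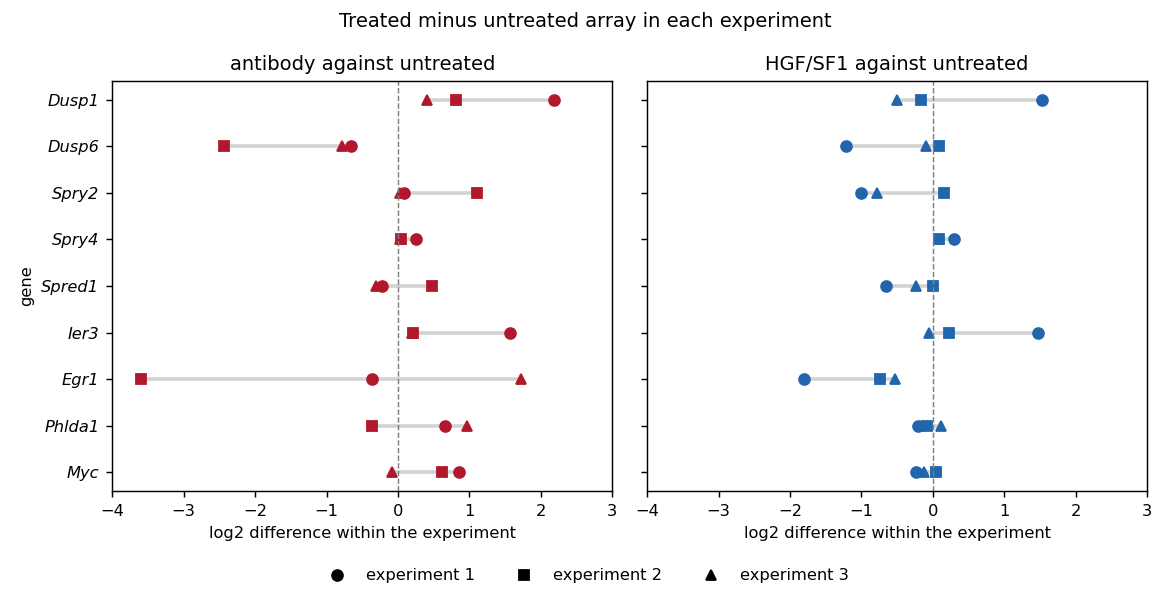
Log2 difference between the treated and the untreated array of the same experiment (x axis) for the brightest probe set of each gene, antibody on the left and HGF/SF1 on the right. Point shapes give the experiments and grey lines join the lowest to the highest. Under antibody Egr1 reached from -3.60 in experiment 2, where its antibody value was near the array's lower end, to 1.72 in experiment 3. Dusp1 and Ier3 had their highest differences in experiment 1 in both panels, which share the untreated arrays.

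Ier3, an early response gene that acts on cell survival, had values (1419647_a_at) of 11.01, 9.92 and 10.48 in antibody-treated cells, 10.91, 9.94 and 10.22 in HGF/SF1-treated cells, and 9.44, 9.71 and 10.28 in untreated cells. Treated and untreated arrays were apart by more than 1 log2 unit only in experiment 1, where antibody gave 1.57 and HGF/SF1 1.47 over the same untreated array. In experiments 2 and 3 the antibody differences were 0.21 and 0.20, and those of HGF/SF1 were 0.23 and -0.06. The mean change was 0.66 under antibody (SE 0.35, 95% confidence interval -0.14 to 1.46, adjusted p = 0.53 in limma) and 0.55 after HGF/SF1 (SE 0.35, adjusted p = 1 in limma). Without experiment 1 these were 0.20 and 0.08. Without the antibody array of experiment 2 (0.94) or the untreated array of experiment 3 (0.90), the unadjusted p for antibody was 0.031 or 0.0437 in limma (adjusted p = 0.643 and 0.459).

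Myc, a transcription factor of cell growth, had values (1424942_a_at) of 9.90, 10.27 and 10.51 in antibody-treated cells, 8.81, 9.71 and 10.47 in HGF/SF1-treated cells, and 9.04, 9.66 and 10.60 in untreated cells. Within each condition the experiments differed by up to 1.66 log2 units, and the HGF/SF1 array was within 0.23 of the untreated array of the same experiment. Antibody-treated minus HGF/SF1-treated was 1.09, 0.56 and 0.04, with a mean of 0.56 (SE 0.48, adjusted p = 0.72 in limma). With the experiment as a block the SE was 0.20 and the unadjusted p 0.0289 (adjusted p = 0.19 in limma), and in that fit 2 of the 9 genes, Spry2 and Myc, passed the unadjusted threshold between the treatments, where 19.8% of all probe sets did (9.1% higher and 10.7% lower). With the experiment as a random block at the estimated correlation Myc did not pass (unadjusted p = 0.154, adjusted p = 0.478 in limma), and Spry2 did (unadjusted p = 0.00643, adjusted p = 0.116 in limma). Leaving out 1 array moved the change of Myc between the treatments to between 0.13, when HGF/SF1 of experiment 1 was left out, and 0.97, when HGF/SF1 of experiment 3 was. None of the 9 passed the adjusted threshold with the block, where 1.07% of all probe sets did. Dusp1, Spry2 and Myc were higher and Spry4 lower than in HGF/SF1-treated cells in 3 of 3 experiments, 4 of the 9, which held for 34.8% of all probe sets in either direction. Against untreated cells, the antibody gave 0.86, 0.61 and -0.09, with a mean of 0.46 (SE 0.48, adjusted p = 0.798 in limma), which was 0.10 without the untreated array of experiment 1 and 0.88 without that of experiment 3. With whole experiments left out, which keeps treated and untreated arrays together, it was 0.26 without experiment 1, 0.38 without experiment 2 and 0.74 without experiment 3.

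After HGF/SF1, 0 of the 9 genes and 0 of the 13 probe sets passed an unadjusted p under 0.05 in limma against untreated cells, where 0.849% of all probe sets passed (0.499% higher and 0.349% lower). The count was also 0 with the block, where 1.82% passed. The 9 genes had a median log2 change of -0.10, against 0.002 for all probe sets, and a median absolute change of 0.30, against 0.09. Over the 13 member probe sets these medians were -0.10 and 0.29. By the brightest probe set, Egr1 was lower and Spry4 higher than in untreated cells in 3 of 3 experiments, 2 of the 9, which held for 21.9% of all probe sets (11.2% higher and 10.7% lower). The other probe set of Spry4 was on the lower side in 3 of 3, at -0.07, -0.01 and -0.01. The 95% confidence intervals of the 9 genes ran from -3.56 to 1.51 for Egr1, the widest, and from -0.11 to 0.43 for Spry4, the narrowest, and a change of 1 log2 unit, up or down, lies within the interval of Dusp1, Dusp6, Spry2, Ier3, Egr1 and Myc. These intervals pool the spread of each probe set over all arrays, those with antibody included. For Egr1 the SD was 2.65 in antibody-treated, 0.81 in HGF/SF1-treated and 0.131 in untreated cells. For Phlda1 it was 0.671, 0.12 and 0.0427. The intervals of these genes thus rest largely on arrays outside the comparison. Because both treatments were set against the same 3 untreated arrays, the changes of the treatments are not independent of each other.

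Most of the members varied more between arrays of a condition than the median gene did. The pooled SD between the 3 arrays of a condition was 1.60 for Egr1, 1.02 for Dusp1, 0.926 for Dusp6, 0.686 for Myc and 0.494 for Ier3, against a median of 0.205 over all probe sets. These 5 genes lay above the 90th percentile of all probe sets, at 99.9, 99.4, 99.1, 97.1 and 90.9, and among the 1000 probe sets nearest to each in brightness at 99.9, 99.3, 98.4, 97 and 92.9. Spry2 (88.2) and Phlda1 (84) came next, and Spred1 (67.1) and Spry4 (24.1) were ordinary. Among all 12393 genes 8.34% lay above the 90th percentile. Of 29 other immediate early genes 16 (55.2%) did, against 5 of the 9 members (55.6%), and of 20 genes of the Ras to ERK cascade 1 (5%). It was 5 of 18 (27.8%) for phosphatases and feedback inhibitors outside the members and 1 of 13 (7.69%) for other ERK output genes. For the p38 and JNK cascades it was 1 of 12 (8.33%), and for Myc relatives and partners 2 of 12 (16.7%). With the block the SD was 0.591 for Dusp1 and 0.301 for Myc, lower by a good part than without it. It was 1.59 for Egr1 and 0.803 for Dusp6, close to the values without it.

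**Figure D4:**
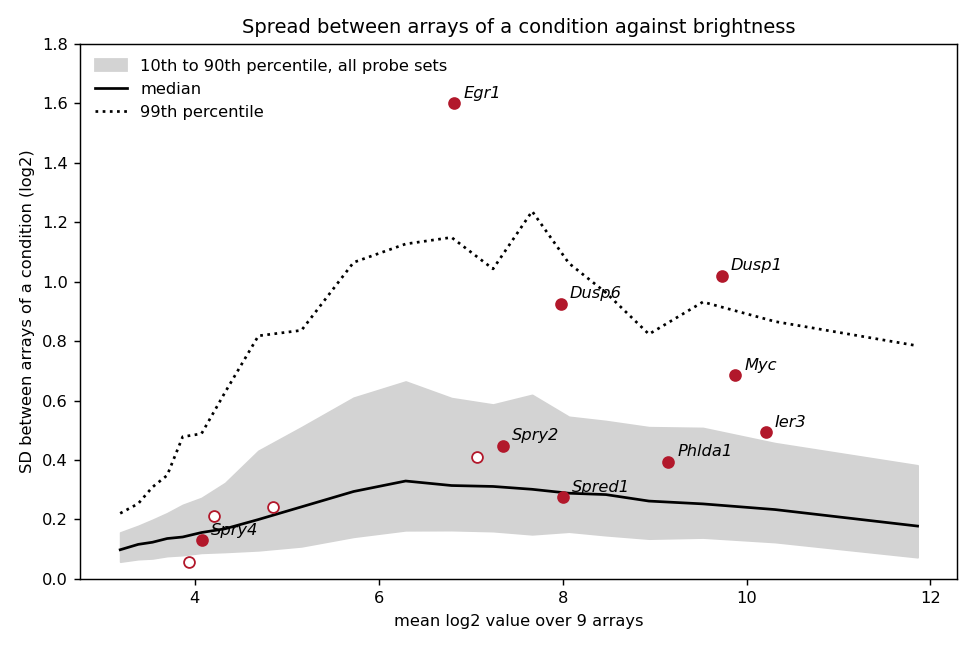
Pooled SD between the 3 arrays of a condition (y axis, log2 units) against the mean log2 value over 9 arrays (x axis). Red points are member probe sets, filled for the brightest of each gene, and the grey band, line and dotted line give the 10th to 90th percentile, the median and the 99th percentile of all probe sets in 20 bins of brightness. Egr1, at an SD of 1.60, and Dusp1, at 1.02, lay above the dotted line.

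The other genes of the pathway were taken from 6 lists, and 0 of their genes passed an adjusted p under 0.05 in any comparison in limma, with or without the block. The counts below use an unadjusted p under 0.05, which 4.53% of all probe sets passed as higher and 7.29% as lower for antibody against untreated cells (8.05% and 10.1% with the block), and 5.2% and 7.96% for antibody against HGF/SF1 (9.1% and 10.7% with the block). For HGF/SF1 against untreated cells 0 genes of the lists passed without the block and 1 with it, Dusp7, which was lower (-0.30, a sign shared by 2 of its 3 probe sets), where 0.849% and 1.82% of all probe sets did. Of 18 measured phosphatases and feedback inhibitors outside the members, 1 was higher and 0 were lower for antibody against untreated cells (3 and 1 with the block, median log2 change 0.05). The 1 without the block was Dusp16, a phosphatase that acts mainly on JNK and p38, which was 8.08, 9.01 and 8.98 in antibody-treated cells, against 7.42, 7.75 and 7.93 in untreated cells. Its 3 antibody arrays were above all untreated arrays, with a change of 0.99 (SE 0.27, unadjusted p = 0.00536, adjusted p = 0.218 in limma). Of all probe sets, 14.2% did not overlap in this comparison and 13.8% between the treatments. Like most genes named from the lists, Dusp16 was picked by its p, so its lack of overlap is no separate result. Between the treatments 4 were higher and 0 lower (5 and 0 with the block). Besides Spry1 (0.46, unadjusted p = 0.0486 in limma) these were Dusp16 and Lrig1, and Dusp7, a cytoplasmic ERK phosphatase, at 0.64 (SE 0.18, adjusted p = 0.202 in limma), with 7.22, 7.39 and 7.52 in antibody-treated cells against 6.40, 6.76 and 7.07 in HGF/SF1-treated cells. Lrig1, which promotes the breakdown of receptor tyrosine kinases, differed by 0.58 (SE 0.21, adjusted p = 0.278 in limma) and Dusp16 by 0.74 (SE 0.27, adjusted p = 0.285 in limma), the second with -0.14 in experiment 1. The sign of Lrig1 was shared by 2 of its 3 probe sets. Dusp7 was higher by all 3 of its probe sets and by 0.45 to 0.82 in the 3 experiments.

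Of 29 other immediate early genes, 4 were higher and 2 lower for antibody against untreated cells (6 and 3 with the block, median log2 change 0.08). Ccn1, a secreted matrix protein, at 1.61 (SE 0.43, by a probe set that may cross-hybridise), and Tiparp, an ADP-ribosyltransferase, at 1.18 (SE 0.37), were among the higher ones in 3 of 3 experiments. Ier5 was lower, at -0.33 (SE 0.12), with 10.38, 10.18 and 10.51 in antibody-treated cells against 10.58, 10.71 and 10.77 in untreated cells. Between the treatments 2 were higher and 2 lower (5 and 5 with the block), and the orphan nuclear receptor Nr4a2 was among the lower, at -0.85 (SE 0.29, adjusted p = 0.263 in limma). Jun, a subunit of the transcription factor AP-1, was among those called only with the block. It differed from untreated cells by 1.99, 1.25 and 1.04, with a mean of 1.42 (SE 1.00, unadjusted p = 0.189, adjusted p = 0.663 in limma), and with the block the unadjusted p was 0.00686 (adjusted p = 0.122), while its other probe set had the opposite sign. Fos, another AP-1 subunit, differed by -2.66 in experiment 2 and by -0.12 and 0.47 in experiments 1 and 3, with a mean of -0.77 (SE 0.78, adjusted p = 0.791 in limma). Its difference in experiment 2 had the same sign as that of Egr1.

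Of 13 other ERK output genes, Lif, a cytokine of the IL-6 family, was higher at 0.64 (SE 0.20) and Phlda2, a relative of Phlda1, lower at -0.56 (SE 0.24) for antibody against untreated cells (2 higher and 1 lower with the block). Between the treatments 0 were higher and 1 lower (2 and 1 with the block). Phlda2 was 7.62, 6.88 and 6.69 in antibody-treated cells, against 7.91, 7.40 and 7.56 in untreated cells, and was lower in 3 of 3 experiments. The ERK targets Etv4 and Etv5, which encode ETS factors, differed by 0.17 (SE 0.15) and 0.28 (SE 0.29), and the cyclin gene Ccnd1 by -0.17 (SE 0.27), none past the threshold. Etv4 (5.33 with antibody, 5.16 untreated) and Etv5 (4.96 and 4.68) were below the median brightness of 6.02, which limits their values. The sign was shared by 1 of 2 probe sets of Etv5 and 2 of 3 of Ccnd1.

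Of 20 genes of the Ras to ERK cascade, 2 were higher and 2 lower for antibody against untreated cells (4 and 4 with the block), with a median log2 change of 0.00. Between the treatments 1 was higher and 2 lower (3 and 6 with the block). The kinase gene Araf was lower in 3 of 3 experiments, with 7.55, 7.25 and 7.59 in antibody-treated cells, against 7.96, 8.25 and 8.31 in untreated cells, a change of -0.71 (SE 0.15, unadjusted p = 0.00133, adjusted p = 0.177 in limma). All 3 antibody arrays lay below all 6 others, since HGF/SF1-treated cells had 7.89, 8.26 and 8.09. Araf was picked by its p in these comparisons, so this is no separate result. The Ras-related gene Rras was higher, at 0.73 (SE 0.27), and Mknk1, a kinase downstream of ERK and p38, lower, at -0.50 (SE 0.20). Of the 3 probe sets of Mknk1, 2 had this sign, here and between the treatments. Between the treatments Mknk1 gave -0.82 (SE 0.20, adjusted p = 0.159 in limma), and Braf, by a dim probe set, 0.31 (SE 0.13).

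**Figure D5:**
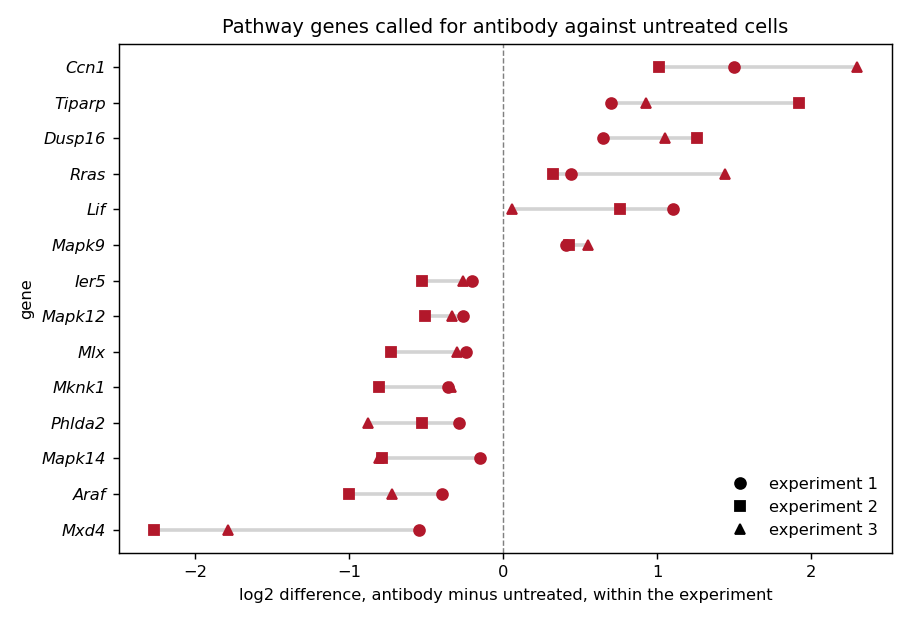
Log2 difference between the antibody-treated and the untreated array of the same experiment (x axis) for the pathway genes named from the lists in this comparison, sorted by their mean change. Point shapes give the experiments and grey lines join the lowest to the highest. The 14 genes were picked by their p in the same comparison, so their agreement in sign over the experiments is no separate result (36.8% of all probe sets had 1 sign in 3 of 3). Means ran from 1.61 for Ccn1 to -1.54 for Mxd4, with none past an adjusted p under 0.05.

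Of 12 genes of the p38 and JNK cascades, 1 was higher and 3 lower for antibody against untreated cells, and 3 and 3 between the treatments, the same counts as with the block. Mapk14, which encodes p38α, was 8.81, 8.61 and 8.27 in antibody-treated cells, against 8.97, 9.40 and 9.08 in untreated cells, a change of -0.58 (SE 0.19, unadjusted p = 0.0142, adjusted p = 0.284 in limma), and all 4 of its probe sets were lower. Mapk12, another p38 gene, was lower by a dim probe set, at -0.37 (SE 0.12), and Mapk9, which encodes a JNK, was higher at 0.46 (SE 0.15) by all 3 of its probe sets. Between the treatments Mapk11, another p38 gene, was higher at 0.42 (SE 0.15), and Mapk14 gave -0.53 (SE 0.19).

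Of 12 genes that encode Myc relatives and partners, 0 were higher and 2 lower for antibody against untreated cells (1 and 2 with the block), and 2 and 2 between the treatments (4 and 2 with the block). Mxd4, whose product competes with Myc for its partner Max, was 6.71, 5.17 and 5.55 in antibody-treated cells, 7.81, 7.35 and 7.30 in HGF/SF1-treated cells, and 7.26, 7.45 and 7.34 in untreated cells. The 3 antibody arrays were below all 6 others, with a change of -1.54 (SE 0.35, unadjusted p = 0.00201, adjusted p = 0.195 in limma) against untreated cells and of -1.68 (SE 0.35, adjusted p = 0.133 in limma) against HGF/SF1-treated cells, and all 4 probe sets were lower. As Mxd4 was picked by its p in these comparisons, the lack of overlap is no separate result. Mlx, a partner of the Mxd proteins, was lower as well, at -0.42 (SE 0.15) and -0.65 (SE 0.15). Mlxip, a partner of Mlx, was higher between the treatments, at 0.43 (SE 0.14).

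As a description of likeness, each member was set against all other genes by Pearson's r over the 9 arrays, which share experiments and conditions. The 2 genes of highest r are named for each member, so their high r is no separate result. The genes nearest to Dusp6 were Zfp593 (r = 0.967) and Gipc1 (0.965), those nearest to Spry2 were Foxn2 (0.97) and Zmym4 (0.959), and those nearest to Myc were Xpo6 (0.976) and Slc45a3 (0.975). Spred1 was nearest to Spdl1 (0.957) and Kpna2 (0.936), Dusp1 to Spsb1 (0.943) and Cav3 (0.943), and Egr1 to Aup1 (0.915) and Cmtm8 (0.901). Cav3 and Cmtm8 were dim, with means of 4.30 and 4.66. For Spry4 (Nphs1 and Pfn3, 0.966 and 0.948), Ier3 (Krt31 and Nol3, 0.929 and 0.91) and Phlda1 (Tbx4 and Chic1, 0.961 and 0.959), the nearest genes were all dim, with means from 3.61 to 4.62.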

How the data were processed

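RNA of 9 MLP29 cultures, 3 per condition, was hybridised to Affymetrix Mouse430A_2 arrays. The authors used affylmGUI with rma background correction and deposited log2 values, 1 for each probe set. The normalization between arrays and the summary method are not given in the sources used here, and the intensity files were not used. Of 22690 probe sets, 64 controls were left out. The annotation gave a single gene for 20380, more than 1 for 691 and none for 1555 of the rest, and 20351 had a RefSeq symbol (GRCm38.p6). Each gene is represented by its probe set of highest mean.

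limma 3.58.1 in R 4.3.3 fitted the 3 condition means to all 9 arrays, with eBayes moderation (6 residual and 2.39 prior degrees of freedom) and two-sided tests. The threshold was 0.05, for unadjusted p and for p adjusted by Benjamini-Hochberg over 22626 probe sets. List counts of higher or lower genes use unadjusted p. The script was tested on simulated data. The number of arrays limits the precision.

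Experiments 1, 2 and 3 were taken from the number that ends each sample title. Each such number occurs with every condition, and the methods describe experiments with all conditions. The labels do not say what the number stands for. With condition means removed, arrays of different conditions correlated at r = 0.0958 to 0.591 within an experiment and at -0.484 to 0.0308 between experiments. Removing those means ties the ranges to each other, so the values between experiments are no separate result. Values with the experiment as a fixed block are given for all counts of calls and for the members whose call moves, with the random block beside them.

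The members and lists were chosen with earlier results of these data known. All members are named, with the 3 genes of smallest p in each list and comparison among those past the unadjusted threshold and the 2 genes nearest to each member by correlation. Fos, Jun, Etv4, Etv5, Ccnd1, Spry1 and Hnf4a were named in addition after their values were seen. Alternatives were the experiment as a fixed or random block, median centring, only probe sets above the median brightness, a variance trend, the mean of a gene's probe sets, and leaving out each array or experiment.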

Additional observations from a re-analysis of the deposited data

How the results depend on the processing

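No member passed an adjusted p under 0.05 in limma in any alternative. Of 483 alternative values of single members, 439 kept their direction and their side of the unadjusted threshold, 19 passed it only in the alternative, 3 (Spry2 between the treatments) no longer passed it and 22 changed direction, 0 of them with an unadjusted p under 0.05.

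With the experiment as a fixed replicate block, 4114 probe sets passed the unadjusted threshold for antibody against untreated cells, 411 for HGF/SF1 against untreated cells and 4490 for antibody against HGF/SF1, compared with 2674, 192 and 2978 without it. The adjusted threshold was passed by 24, 0 and 242, compared with 5, 0 and 5. Members called with the block were 2, 0 and 2, compared with 0, 0 and 1. With a random block, 41 (antibody against untreated) and 214 (antibody against HGF/SF1) passed the adjusted threshold, 374 passed the unadjusted one for HGF/SF1 against untreated cells, and 1 member, Dusp6, was called for antibody against untreated cells. Above the median brightness 3 passed the adjusted threshold for antibody against untreated cells and 14 the unadjusted one for HGF/SF1, where fewer probe sets were tested. A variance trend gave 3 and 3 adjusted calls for antibody against untreated and against HGF/SF1, and centring gave 13 for antibody against HGF/SF1. Where not stated, the cause was not tested. For antibody against untreated cells, Spry4 was -0.07 as the mean of its probe sets and Spred1 was 0.04 after centring.

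Leaving out an array or an experiment gave 912 to 4014 unadjusted and 0 to 1088 adjusted calls for antibody against untreated cells, 123 to 366 and 0 for HGF/SF1 against untreated cells, and 1257 to 4114 and 0 to 1146 for antibody against HGF/SF1. The counts of members called were 0 to 2, 0 to 1 and 0 to 2. For both antibody comparisons the highest counts over all probe sets came without the antibody array of experiment 1. Without all of experiment 1, 550 probe sets passed the adjusted threshold for antibody against untreated cells. The log2 change for antibody against untreated cells ranged from -0.27 to 0.18 for Spred1 and from -2.01 to 0.68 for Egr1. For HGF/SF1 against untreated cells it ranged from -0.53 to 1.01 for Dusp1, from -0.15 to 0.01 for Phlda1 and from -0.51 to 0.33 for Myc. For antibody against HGF/SF1 it ranged from -0.13 to 0.03 for Spry4, from -0.16 to 0.39 for Ier3 and from -0.98 to 1.85 for Egr1.

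The signal limits Spry4 most, with a mean of 4.08, against a median of 6.02 over all probe sets, and the 3 arrays of a condition limit every value.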
